A study of Rattus norvegicus with 10 samples.

Results

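The genes described here encode the enzymes that carry glucose through glycolysis to lactate, measured by RNA-Seq in the cerebral cortex of rats given electroacupuncture (EA) and of control rats. The list holds 10 symbols, Hk1, Pfkm, Pfkp, Aldoa, Gapdh, Pgk1, Eno1, Eno2, Ldha and Ldhb, and a gene entered it when its symbol stood in the deposited table. Of the 10 symbols 9 were found among the 32623 genes of the table, each at a single locus, and all 9 were among the 15169 genes tested. Gapdh was not analysed here under its own symbol, and a locus described as glyceraldehyde-3-phosphate dehydrogenase is given in its place, apart from the 9.

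EA is the passing of a pulsed current through acupuncture needles. In the EA group needles stood at the scalp point Baihui and the upper-lip point Shuigou and carried 3 mA at 2/100 Hz for 40 min, and controls spent those 40 min bound in the same way, with no needles or current. Each group gave 5 libraries of poly(A) RNA from adult male Sprague-Dawley rats, which were anesthetized with pentobarbital and perfused with saline before the cortex was taken. The comparison asks which cortical transcripts differ after EA, and because the controls had no needles, the needle and the current cannot be told apart. The libraries of a group carry their own numbers, but that each came from a separate rat is not stated outright, so the p-values measure the spread between these libraries.

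Glycolysis turns glucose into pyruvate in the cytosol, and gains ATP and NADH on the way. Lactate dehydrogenase then exchanges pyruvate and lactate, and regenerates the NAD+ that glycolysis needs. In brain these steps run in neurons and glia alike, lactate passes between cells through monocarboxylate transporters, and several of the genes are classic targets of the hypoxia-inducible factors, which bind promoters at the letters ACGTG or GCGTG. RNA levels do not measure enzyme activity, flux or lactate.

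Transcript levels of the pathway were close to each other in the EA and control cortices. None of the 9 genes passed the test (edgeR's quasi-likelihood test, adjusted p under 0.05 after Benjamini-Hochberg adjustment over all genes and a fold change above 1.2), where 0.0198% of all genes tested were called. At an unadjusted p under 0.05 were 0 of the 9 genes, where 13.7% of all genes were, and in 0 of the 9 did the EA and control libraries separate without overlap, where 3.04% of all genes did (1.42% with EA higher and 1.62% with EA lower). DESeq2 on the same counts also called 0 of the 9, where it called 0.455% of all genes higher and 0.639% lower in EA. The 95% interval of the fold change lay inside 1.2-fold either way for 9 of the 9 genes, where 35.6% of all genes had so narrow an interval, and over the 9 genes the interval bounds ran from 0.892-fold to 1.15-fold.

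The promoters of the lactate dehydrogenase genes are shown first, because these 2 genes make the chains of 1 enzyme and differ in the motif of the hypoxia-inducible factors. Each sequence below is in the RefSeq annotation of the assembly GRCr8, runs 5′ to 3′ along the gene from 250 bases before to 50 bases after the start of transcription, and has each ACGTG of either strand in capitals. The window of Ldha is chr1:106507842-106508141 on the plus strand, and that of Ldhb is chr4:177177359-177177658 on the minus strand.
Ldha: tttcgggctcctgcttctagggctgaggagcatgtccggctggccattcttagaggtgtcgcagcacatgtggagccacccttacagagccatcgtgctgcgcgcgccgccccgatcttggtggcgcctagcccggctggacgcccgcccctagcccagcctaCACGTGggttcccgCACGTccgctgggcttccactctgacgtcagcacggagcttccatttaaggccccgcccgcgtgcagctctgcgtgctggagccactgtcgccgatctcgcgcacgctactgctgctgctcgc
Ldhb: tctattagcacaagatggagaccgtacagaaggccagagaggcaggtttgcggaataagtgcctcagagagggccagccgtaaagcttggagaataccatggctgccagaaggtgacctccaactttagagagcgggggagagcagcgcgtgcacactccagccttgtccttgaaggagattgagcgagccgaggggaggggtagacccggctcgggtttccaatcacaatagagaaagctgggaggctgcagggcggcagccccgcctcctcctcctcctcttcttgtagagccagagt
The Ldha window held 3 matches to ACGTG, 2 of them in the palindrome CACGTG that is read on both strands, and 3 to GCGTG, while the Ldhb window held 0 and 1. The table of promoters matched 9 of the 10 symbols, all but Pgk1, with 13 windows, since some genes have several starts. ACGTG stood in 7 of these 13 windows, of 7 genes, against 19.3% of all 33469 promoter windows. GCGTG stood in 6 of the 13 windows, of 5 genes, against 29.7% of all windows. The letters describe the windows only, and binding was not measured.

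In level, the pathway ranged from the highly expressed aldolase to the first kinase. FPKM, the number of fragments scaled to transcript length and to library depth, allows genes to be compared per length. Mean FPKM over the 10 libraries was 635 for Aldoa, 308 for Ldhb, 272 for Eno1, 197 for Pgk1, 165 for Eno2 and for Ldha, 135 for Pfkm, 125 for Pfkp and 87.3 for Hk1. In rank among the 15169 genes this placed Aldoa 47th from the top and Hk1 702nd. The order had clear steps in 3 places, where the lowest library of the upper gene lay above the highest library of the gene below it. Aldoa ran from 566 to 694 FPKM over the libraries, and Ldhb from 269 to 333. Eno1 ran from 248 to 293 FPKM, and Pgk1 from 174 to 212. Pfkp ran from 112 to 138 FPKM, and Hk1 from 80.0 to 92.9. The place of Eno2 is uncertain, because a near copy described below, LOC100911625, held almost the same counts. With the FPKM of both loci added, an alternative chosen after seeing the data, Eno2 would average 319.95 FPKM, above Eno1 in 10 of 10 libraries and above Ldhb in 8 of 10. How reads were shared between the loci is not stated, so the sum may count the same reads at both. Other neighbours in the order overlapped between libraries, among them Eno2 with Ldha, Ldha with Pfkm, and Pfkm with Pfkp.

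**Figure D1:**
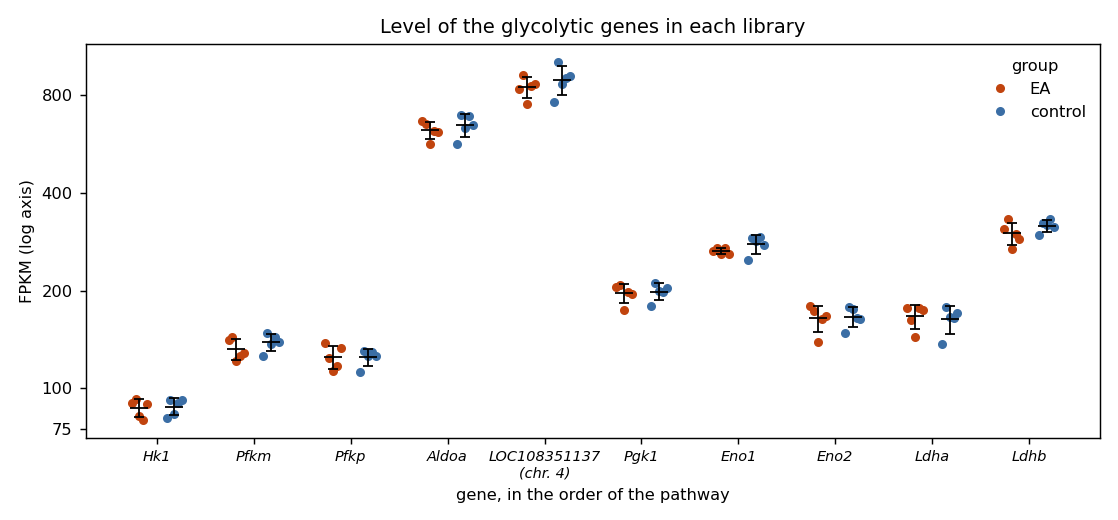
FPKM (log axis) of each gene in the 5 EA libraries (orange, left) and the 5 control libraries (blue, right), one point per library, with the mean and the SD as bars, in the order of the pathway. In every gene the points of EA and control overlap, and levels run from 80.0 FPKM in the lowest library of Hk1 to EA means of 623 FPKM for Aldoa and 846 FPKM for the locus LOC108351137 on chromosome 4, described as glyceraldehyde-3-phosphate dehydrogenase.

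Levels of single libraries are given below as scaled CPM, the deposited counts as CPM after TMM scaling of the library total (a scaling that sets the bulk of genes equal between libraries), which is the quantity edgeR compared, and in the order of libraries 1 to 5 of a group. The log2 fold change is EA over control, with its standard error (SE). FPKM is not TMM-scaled, unlike the values behind the log2 fold change. For Hk1, Pgk1 and Eno2 the mean FPKM was slightly lower in EA while the log2 fold change was slightly positive. Positions are those of the assembly Rnor_6.0 used in the table. The cortex is a mixture of cells, and in such bulk RNA fewer cells of a type and less RNA per cell cannot be told apart.

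Hk1 encodes hexokinase 1, which phosphorylates glucose as it enters the pathway and is the main hexokinase of brain (ENSRNOG00000046891, chr20:31912262-31956649, minus strand). Its scaled CPM was 252.3, 262, 239.8, 222 and 247 in EA, against 230.4, 252.2, 232, 245 and 258 in control. Both the highest value (EA 2) and the lowest (EA 4) were EA libraries, with the control libraries between them. FPKM averaged 86.9 ± 5.51 in EA and 87.8 ± 5.24 in control (SD, n = 5 each). The log2 fold change was 0.01 (SE 0.05, adjusted p = 0.965 by edgeR's quasi-likelihood test with Benjamini-Hochberg adjustment), with a 95% interval from -0.10 to 0.12, and its sign turned with library totals in place of TMM.

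Phosphofructokinase, the step that commits sugar to glycolysis and takes most of its control by ATP, AMP and citrate, was represented by the muscle-type gene Pfkm and the platelet-type gene Pfkp. Pfkm (ENSRNOG00000057988, chr7:139685573-139722132, plus strand) had 436, 449, 392, 384 and 393 scaled CPM in EA, against 395, 445, 420.4, 432 and 428 in control. EA 1 and EA 2 lay in the upper part of the control range or just above it, and EA 3, EA 4 and EA 5 below every control. Mean FPKM was 132 ± 9.93 in EA and 139 ± 8.29 in control (SD, n = 5 each), and the log2 fold change was -0.05 (SE 0.05, interval -0.16 to 0.07, adjusted p = 0.761 by edgeR).
For Pfkp (ENSRNOG00000017163, chr17:68511064-68559471, minus strand) scaled CPM was 324, 294, 278, 273 and 309 in EA, against 268, 300.0, 295, 295 and 294 in control. Control 1 stood below the other 4 controls, which lay within a few units of each other, and the EA values spread on both sides of them. Mean FPKM was 125 ± 10.2 in EA and 125 ± 7.41 in control (SD, n = 5 each), with a log2 fold change of 0.03 (SE 0.05, interval -0.09 to 0.15, adjusted p = 0.864 by edgeR). Without EA 1 the sign turned.

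Aldoa, the aldolase that splits fructose bisphosphate into 3-carbon sugars, was the most highly expressed of the 9 genes (ENSRNOG00000052802, chr1:198228387-198233588, minus strand). Its scaled CPM was 1119, 1099, 992, 1035 and 1019.6 in EA, against 965, 1138, 1058, 1124 and 1082 in control. All EA values fell inside the control range, whose lowest value was control 1 and whose highest was control 2. Mean FPKM was 623 ± 37.9 in EA and 646 ± 52.1 in control (SD, n = 5 each), and the log2 fold change was -0.03 (SE 0.05, interval -0.15 to 0.09, adjusted p = 0.862 by edgeR).

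Glyceraldehyde-3-phosphate dehydrogenase, the step that makes the NADH of glycolysis, could only be read through LOC108351137, which was chosen after its values were seen. This symbol stands at 2 loci. The one on chromosome 4 (ENSRNOG00000018630, chr4:157676595-157679962, minus strand) has the same 20 nearest named protein-coding neighbours as Gapdh has in RefSeq, beginning with Nop2, Iffo1, Ncapd2 and Mrpl51. Its scaled CPM was 873, 969.8, 816, 886 and 898 in EA, against 809, 1034, 897, 917 and 956 in control. The EA values lay within the control range. Mean FPKM was 846 ± 62.7 in EA and 892 ± 91.0 in control (SD, n = 5 each), the 35th highest mean of all genes tested, and the log2 fold change was -0.05 (SE 0.07, interval -0.20 to 0.09, adjusted p = 0.767 by edgeR).
The locus on chromosome 5 (ENSRNOG00000030963, chr5:115649046-115650340, plus strand) spans 1295 bp. There scaled CPM was 444, 464, 141, 171 and 173 in EA, against 174, 260.0, 187, 282 and 185 in control. EA 1 and EA 2 stood far above the other 8 libraries, while EA 3, EA 4 and EA 5 lay below every control. The log2 fold change was 0.36 (SE 0.33, interval -0.36 to 1.07, adjusted p = 0.678 by edgeR). How reads were shared between the 2 loci is not stated, and with their counts summed, an alternative chosen after seeing the data, the log2 fold change was 0.03 (SE 0.11, adjusted p = 0.928), so the sign at the chromosome 4 locus turned.

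Pgk1 encodes phosphoglycerate kinase 1, the first step of the pathway that yields ATP (ENSRNOG00000058249, chrX:77263359-77279367, plus strand). Its scaled CPM was 361, 369, 321, 347 and 341 in EA, against 321, 365, 351, 338 and 359 in control. EA 3 and control 1 shared the low end, and EA 2 was highest. Mean FPKM was 196 ± 12.97 in EA and 199 ± 12.1 in control (SD, n = 5 each), and the log2 fold change was 0.0044 (SE 0.05, interval -0.10 to 0.11, adjusted p = 0.983 by edgeR). Its sign turned with library totals in place of TMM.

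**Figure D2:**
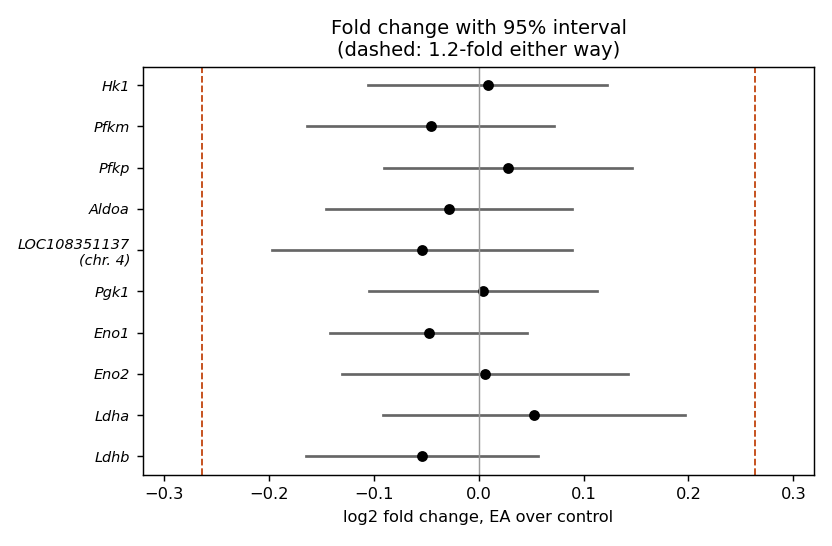
Log2 fold change of each gene, EA over control, from edgeR (points) with its 95% interval (bars), genes in the order of the pathway from top to bottom. The dashed lines mark 1.2-fold either way, and no interval reaches them: the highest bound, 0.20, is that of Ldha, and the lowest among the 9 genes, -0.16, is that of Ldhb.

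Enolase turns 2-phosphoglycerate into phosphoenolpyruvate, and its genes mark cell types, with Eno2 (gamma-enolase, neuron-specific enolase) in neurons and Eno1 (alpha-enolase) in most cells. Eno1 (ENSRNOG00000017895, chr5:167288223-167299609, plus strand) had 524, 539, 534, 528 and 505 scaled CPM in EA, against 496, 559, 558, 561 and 544 in control. Control 1 was the lowest library, and the other 4 controls lay above all 5 EA libraries. Mean FPKM was 265 ± 5.65 in EA and 279 ± 18.4 in control (SD, n = 5 each), and the log2 fold change was -0.05 (SE 0.04, interval -0.14 to 0.05, adjusted p = 0.671 by edgeR). Without control 1 the log2 fold change was -0.08, with an unadjusted p of 0.0494 and an adjusted p of 0.295, so this gene was not called with or without that library.
For Eno2 (ENSRNOG00000013141, chr4:157285179-157294047, minus strand) scaled CPM was 419, 406, 338, 379 and 386 in EA, against 351, 407, 407, 374 and 382 in control. EA 3 was lowest and EA 1 highest, so the EA libraries enclosed the controls. Mean FPKM was 164 ± 15.5 in EA and 166 ± 12.1 in control (SD, n = 5 each), and the log2 fold change was 0.0062 (SE 0.06, interval -0.13 to 0.14, adjusted p = 0.981 by edgeR), with a sign that turned with library totals in place of TMM.

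The Eno2 values are uncertain, because a near copy in the table held almost the same counts. This locus, LOC100911625, is described as gamma-enolase-like, lies at chr9:20251521-20260505 on the plus strand and was chosen after its values were seen. Its scaled CPM was 418, 407, 338, 378 and 385 in EA, against 376, 404, 338, 373 and 380.2 in control. In 8 of the 10 libraries it was within 1% of Eno2, while in control 1 it was 7.23% above Eno2 and in control 3 it was 17.0% below. Its own log2 fold change was 0.04 (SE 0.06, adjusted p = 0.824 by edgeR). With both counts summed, which was also chosen after seeing the data, the log2 fold change was 0.02 (SE 0.06, interval -0.10 to 0.15, adjusted p = 0.896).

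**Figure D3:**
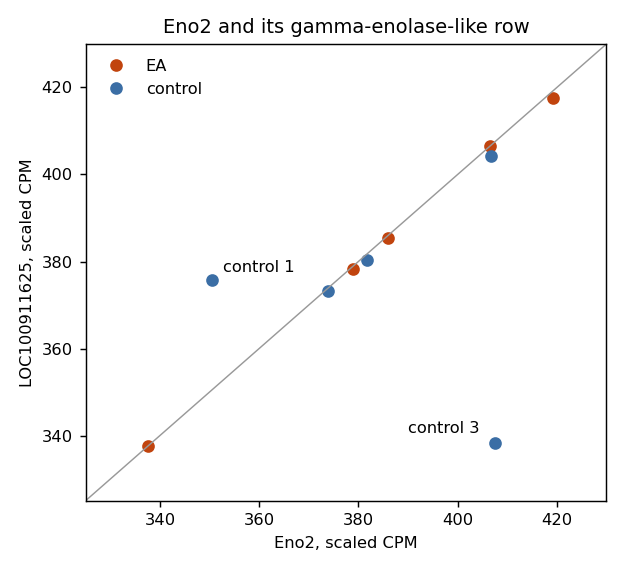
Scaled CPM of Eno2 (horizontal axis) and of the gamma-enolase-like locus LOC100911625 (vertical axis), one point per library, EA in orange and control in blue. The line marks equal values: 8 of the 10 libraries lie within 1% of it, control 1 lies 7.23% above it and control 3 17.0% below it.

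Lactate dehydrogenase is a tetramer of the A chain (Ldha), which favours the making of lactate, and the B chain (Ldhb), which favours its use. Ldha (ENSRNOG00000013009, chr1:102900286-102909707, plus strand) had 295, 273, 251, 293 and 287 scaled CPM in EA, against 232, 290.3, 275, 266 and 284 in control. Control 1 was lowest, EA 1 and EA 4 were highest just above control 2, and EA 3 lay below the other 4 controls. Mean FPKM was 167 ± 13.98 in EA and 163 ± 15.8 in control (SD, n = 5 each), and the log2 fold change of 0.05 was the largest of the 5 above 0 (SE 0.07, interval -0.09 to 0.20, adjusted p = 0.775 by edgeR). Without control 1 it was 0.0062, and without EA 3 it was 0.095.
Ldhb (ENSRNOG00000013000, chr4:176701983-176720012, minus strand) had 434, 468, 392, 414.5 and 398 scaled CPM in EA, against 420.4, 441, 441, 449 and 436 in control. EA 3, EA 4 and EA 5 lay below every control, EA 1 inside their range and EA 2 above it. Mean FPKM was 299.9 ± 23.7 in EA and 316 ± 13.2 in control (SD, n = 5 each), and the log2 fold change was -0.05 (SE 0.05, interval -0.16 to 0.06, adjusted p = 0.686 by edgeR).

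Together 5 of the 9 log2 fold changes were above 0 and 4 below, and their median was 0.0044, against -0.0018 over all genes tested. With library totals in place of TMM 7 of the 9 were below 0. In that setting the median was -0.017 for the 9 genes and -0.023 over all genes tested. With TMM the median size of the change, without its sign, was 0.03 for the 9 genes and 0.10 for all genes. The median SE was 0.05 and 0.10. The genes also varied little between libraries whatever the group. The coefficient of variation of scaled CPM over the 10 libraries ran from 4.16% (Eno1) to 7.41% (Ldha) with a median of 5.57%, against a median of 11.4% over all genes tested. All genes tested reach down to the filter of 0.5 FPKM, while the 9 genes ranked from 47th (Aldoa) to 702nd (Hk1) in level. Neither spread nor interval width was compared with genes of like level.

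The balance of isozymes within a library does not depend on how libraries are scaled, and 3 such ratios of FPKM were compared by an exact two-sided permutation test over all assignments of the libraries, whose smallest p is 0.00794, with Benjamini-Hochberg adjustment over the 3. Ldhb was above Ldha in 10 of 10 libraries. The log2 ratio of Ldha to Ldhb was -0.81, -1.04, -0.90, -0.76 and -0.73 in EA, against -1.12, -0.86, -0.94, -1.01 and -0.87 in control. The 3 highest ratios were EA libraries, but EA 2 had the second lowest, so the groups overlapped. The means were -0.85 ± 0.12 in EA and -0.96 ± 0.11 in control (SD, n = 5 each), a difference of 0.11 (exact permutation p = 0.159, adjusted p = 0.238). Without control 1 the difference was 0.072, and without EA 2 it was 0.16 (exact permutation p = 0.0476, adjusted p = 0.0714), so it did not pass in either case.

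The log2 ratio of Pfkm to Pfkp was 0.03, 0.22, 0.10, 0.10 and -0.05 in EA, against 0.17, 0.18, 0.12, 0.16 and 0.15 in control, so Pfkm had the higher FPKM in 9 of 10 libraries. Of the EA libraries 4 lay below every control and EA 2 above every control. The means were 0.08 ± 0.10 in EA and 0.15 ± 0.02 in control (SD, n = 5 each), a difference of -0.07 that did not pass (exact permutation p = 0.135, adjusted p = 0.238). This call rested on EA 2: without it the difference was -0.11 and the exact permutation p was 0.00794, the smallest possible, with an adjusted p of 0.0238.
Eno1 had the higher FPKM than Eno2 in 10 of 10 libraries, with log2 ratios of 0.57, 0.65, 0.91, 0.72 and 0.63 in EA, against 0.75, 0.70, 0.70, 0.83 and 0.76 in control. The EA libraries held both the lowest ratio (EA 1) and the highest (EA 3). The means were 0.70 ± 0.13 in EA and 0.75 ± 0.05 in control (SD, n = 5 each), a difference of -0.05 (exact permutation p = 0.444, adjusted p = 0.444). Without EA 1 the difference was -0.019, and without EA 3 it was -0.10 (exact permutation p = 0.0397, adjusted p = 0.119). The direction between the genes rests on the counts at the Eno2 locus alone. With the FPKM of LOC100911625 added to that of Eno2 the sum was above Eno1 in 10 of 10 libraries, with a log2 ratio of -0.27 ± 0.13 in EA and -0.20 ± 0.06 in control (SD, n = 5 each) and a difference of -0.07 (exact permutation p = 0.333, adjusted p = 0.333). The sum may count the same reads at both loci, so it does not settle which gene is higher.

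**Figure D4:**
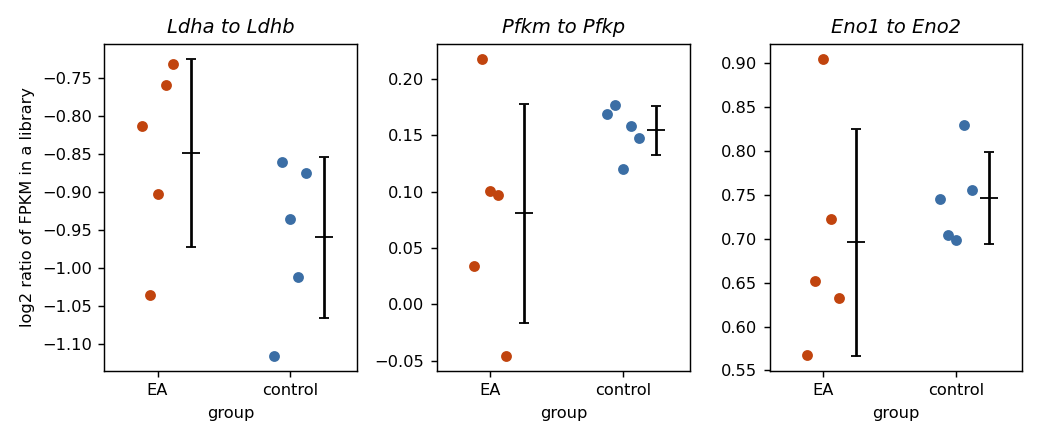
Log2 ratio of FPKM within each library for the isozyme pairs Ldha to Ldhb, Pfkm to Pfkp and Eno1 to Eno2 (Eno2 at its own locus, without LOC100911625), EA left (orange) and control right (blue), with the mean and the SD beside the points. The groups overlap in each panel, and in the middle panel EA 2, at 0.22, is the only EA library above the controls.

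Deposited counts summed to 47843590 to 60941939 per EA library (median 55326262) and to 55223193 to 61707722 per control library (median 59113127), and the smallest count of any of the 9 genes in a library was 10962, for Hk1. In some libraries most of the 9 genes lay low or high together. Their mean log2 deviation from the mean of all libraries was 0.07 in EA 1, 0.06 in EA 2 and -0.09 in EA 3, against -0.12 in control 1 and 0.07 in control 2. Control 1 was among the lowest 2 libraries for 7 of the 9 genes, and EA 3 for 6 of the 9. These were also the libraries with the highest share of mitochondrial genes in the summed FPKM, 46.7% in EA 3 and 45.1% in control 1, where the shares ran from 41.7% to 46.7% in EA and from 38.2% to 45.1% in control. In the non-mitochondrial FPKM the 9 genes took 0.588% to 0.657% in EA and 0.585% to 0.654% in control. The part of the mitochondrial share in the levels of these 2 libraries was not tested.

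**Figure D5:**
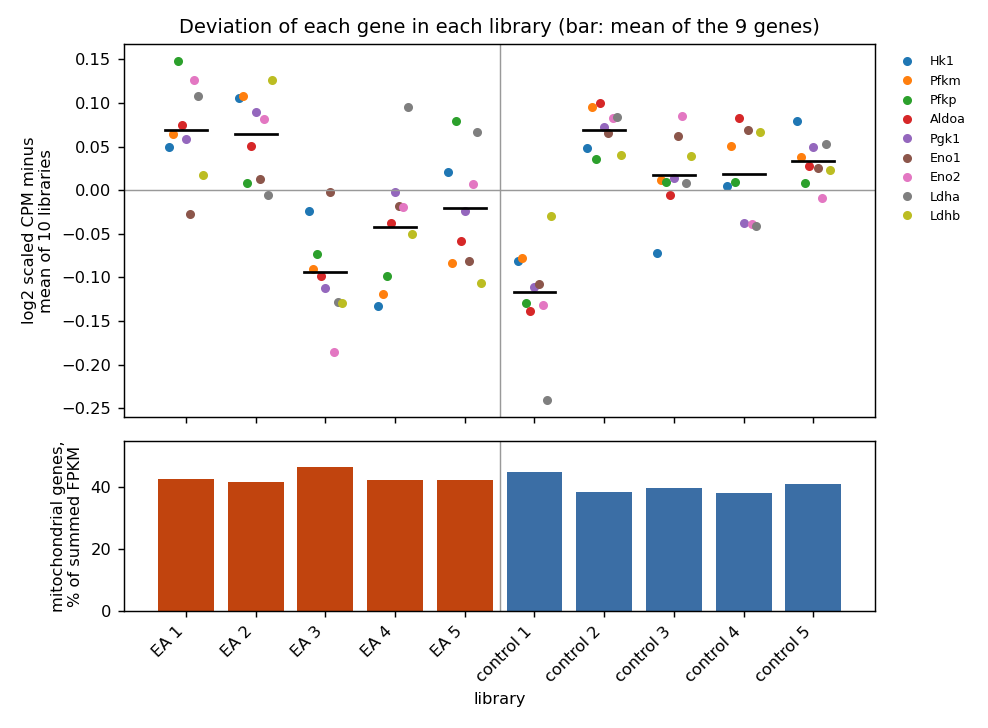
Upper panel: log2 scaled CPM of each of the 9 genes in a library minus the mean of the 10 libraries, with the mean of the 9 genes as a bar. Lower panel: share of mitochondrial genes in the summed FPKM in percent. EA 3 and control 1 have the lowest means, -0.09 and -0.12, and the highest mitochondrial shares, 46.7% and 45.1%.

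Markers of the cortex were present, with 6 of 6 neuronal markers tested and a summed FPKM of 1393 to 1950 in EA and 1610 to 1751 in control, lowest in EA 3. Of these 6 markers 5 had higher and 1 had lower fitted levels in EA, with 1 at an unadjusted p under 0.05 by edgeR. Over all genes tested 13.7% had such a p, 6.59% with EA higher and 7.15% with EA lower. The 6 astrocyte markers summed to 502 to 974 FPKM in EA and 594 to 830.4 in control, with 4 higher and 2 lower in EA, and the 6 microglial markers to 111 to 133 in EA and 125 to 139 in control, with 1 higher and 5 lower. In both lists 0 had an unadjusted p under 0.05 by edgeR. The 6 oligodendrocyte markers summed to 856 to 1112 FPKM in EA and 972 to 1414 in control, 6 of 6 had lower fitted levels in EA and 3 of 6 had an unadjusted p under 0.05. The 5 endothelial markers summed, Cldn5 among them, came to 43.7 to 49.8 FPKM in EA and 50.2 to 65.4 in control. These sums did not overlap, with a narrow gap between EA 1 at 49.8 and control 3 at 50.2. No share of such gaps was computed for sums of markers. Of the 6 listed endothelial markers 4 were tested. All 4 tested had lower fitted levels in EA, 2 of them at an unadjusted p under 0.05, Cldn5 was at 0 in a library, and Pecam1 was not analysed here. Blood-cell markers summed to 7.00 to 16.8 FPKM in EA and 8.56 to 43.8 in control, 1 of the 4 tested had a higher and 3 had a lower fitted level in EA, 2 at an unadjusted p under 0.05, and Alas2 and Slc4a1 were at 0 in a library. The part of these cell types in the levels of the 9 genes was not tested.

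Beside the 9 genes, 95 genes of the neighbouring pathways were listed in 7 groups, of which 82 were tested. None of the 82 was called by edgeR or by limma on log2(FPKM + 1). Over all 15169 genes edgeR called 3 and limma 4. DESeq2 called 1 of the 82, where it called 0.455% of all genes higher and 0.639% lower in EA. At an unadjusted p under 0.05 by edgeR were 2 higher and 7 lower in EA, where 6.59% of all genes were higher and 7.15% lower. In 1 of the 82 the groups did not overlap, where 3.04% of all genes did not.

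Among the other glycolytic enzymes 11 of 18 were tested, with 0 higher and 1 lower at an unadjusted p under 0.05 and a median log2 fold change of -0.0071. The lower one was Aldoc, the aldolase of astrocytes, with 1228, 1299.9, 1433, 1341 and 1178 scaled CPM in EA, against 1399, 1425, 1453, 1415 and 1516 in control. EA 3 alone lay inside the control range, and the other 4 EA libraries were below every control. Its FPKM averaged 733 ± 44.8 in EA and 829 ± 29.2 in control (SD, n = 5 each), and its log2 fold change of -0.15 (SE 0.05, unadjusted p = 0.0145) had an adjusted p of 0.257 by edgeR. Hk2, the hexokinase of muscle and of dividing cells, was low at 2.10 FPKM (log2 fold change -0.21, SE 0.10), and the pyruvate kinase gene Pkm was high at 312 FPKM (log2 fold change -0.05, SE 0.07).

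Glucose and lactate transport was the group with the lowest median, -0.10 over 10 of 12 genes tested, of which 8 were below 0, while 0 were higher and 1 was lower at an unadjusted p under 0.05. That gene was Bsg, the chaperone of monocarboxylate transporters at the membrane, with 455, 450.3, 388, 416 and 381 scaled CPM in EA, against 425, 472, 465, 461 and 483 in control. EA 3, EA 4 and EA 5 lay below every control, and EA 1 and EA 2 within the control range. Its log2 fold change was -0.14 (SE 0.06, unadjusted p = 0.0335, adjusted p = 0.320 by edgeR). Slc2a1, the glucose transporter of brain vessels and astrocytes, had a log2 fold change of -0.15 (SE 0.08, unadjusted p = 0.0715), and Slc2a3, the glucose transporter of neurons, one of 0.18 (SE 0.10, unadjusted p = 0.0944). Without EA 5 the value of Slc2a1 was -0.087, and without control 1 that of Slc2a3 was 0.11. Bsg and Slc2a1 are also expressed in brain endothelium, whose summed markers were lower in EA by the narrow gap given above. The part of the endothelium in these values was not tested.

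The regulators of glycolysis and pyruvate use had 16 of 17 genes tested, with 0 higher and 1 lower at an unadjusted p under 0.05. Pdk2, a kinase that holds back pyruvate dehydrogenase, had a log2 fold change of -0.15 (SE 0.05, unadjusted p = 0.0144, adjusted p = 0.257 by edgeR), and Pdha1, a subunit of that dehydrogenase, one of 0.08 (SE 0.06). For glycogen, all 12 genes were tested, with 0 higher and 1 lower at an unadjusted p under 0.05. This was the phosphorylase Pygm, at -0.14 (SE 0.06, unadjusted p = 0.0430). In the pentose phosphate pathway, the side branch that makes NADPH, 6 of 7 genes were tested and 1 was higher and 2 lower at that threshold. Pgls, the lactonase of the oxidative branch, was at -0.28 (SE 0.09, adjusted p = 0.230 by edgeR), the transketolase Tkt at -0.15 (SE 0.05, adjusted p = 0.254) and the epimerase Rpe at 0.16 (SE 0.07, adjusted p = 0.361). None of the 9 genes of the shuttles that carry cytosolic NADH to mitochondria had an unadjusted p under 0.05 by edgeR or was called by DESeq2, with Mdh1 the highest at 330.2 FPKM (log2 fold change 0.03, SE 0.06). The lowest p among them was that of Slc25a13, low at 1.22 FPKM (log2 fold change 0.52, SE 0.27, unadjusted p = 0.0719 by edgeR). DESeq2 gave Slc25a13 no adjusted p.

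The regulators and classic targets of hypoxia outside glycolysis had 18 of 20 genes tested, with 1 higher and 1 lower at an unadjusted p under 0.05. P4ha1, a collagen prolyl hydroxylase, was the only one of the 82 genes whose groups did not overlap, where 3.04% of all genes did not. Its scaled CPM was 66.8, 60.6, 71.3, 71.7 and 75.03 in EA, against 59.0, 53.4, 56.8, 57.1 and 55.9 in control. Every EA library was above the highest control, and EA 2 was nearest to it. FPKM averaged 31.0 ± 2.68 in EA and 25.8 ± 0.745 in control (SD, n = 5 each), and the log2 fold change of 0.29 (SE 0.06, unadjusted p = 0.000315) did not pass in edgeR (adjusted p = 0.155) but passed in DESeq2 (adjusted p = 0.0036). Over the other alternatives its adjusted p ran from 0.0836 without EA 2 to 0.359 without EA 5. The regulators themselves were not called, with Hif1a at a log2 fold change of 0.11 (SE 0.05), Epas1 at -0.15 (SE 0.07) and the prolyl hydroxylase Egln2 at -0.15 (SE 0.07, unadjusted p = 0.0423, adjusted p = 0.342 by edgeR).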

How the data were processed

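Poly(A) RNA of rat cerebral cortex, 5 EA and 5 control libraries, was sequenced as stranded paired reads. Cutadapt trimming, HISAT2 alignment to Rnor_6.0, assembly by StringTie and gffcompare, and DESeq2 calls were the steps of the authors. In the submitters' processing notes stand Bowtie 0.12.2, HISAT2 2.0 and StringTie 1.3.0. For each gene the authors deposited FPKM from ballgown, and an FPKM of 0.0001 stands for 0. The authors also deposited counts, as whole numbers from that assembly. How they were drawn, how reads that fit several loci were shared and whether strand was used are not given in the sources used here. In every library the counts summed to more than the valid reads that the authors report, so they do not tally each read once. The tests treat them as read counts all the same.

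The filter asked for 0.5 FPKM or more in 5 or more of the 10 libraries. Counts of the genes that passed were compared with the quasi-likelihood F test of edgeR 4.0.16 after TMM scaling, in R 4.3.3, with Benjamini-Hochberg adjustment over all genes. Calls needed a fold change above 1.2 and an adjusted p under 0.05. Ratios, summaries and figures were made in Python 3.11.15 with numpy 2.4.6, pandas 2.3.3 and matplotlib 3.10.9. Of several loci with a symbol, the one with the highest mean FPKM was used. Alternatives were RLE scaling, library totals, other filters, DESeq2 1.42.0, limma 3.58.1 on log2(FPKM + 1) and log2(FPKM + 0.1), a block on the replicate number, a fit without EA 2 and EA 5, which earlier results of these data had set apart, and fits without each library in turn.

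The members, the lists and the alternatives were chosen with earlier results of these data known. All members are described. Of each neighbouring list the text takes from up to 4 genes with the lowest edgeR p and up to 2 with the highest mean FPKM. The lists were other glycolytic enzymes, regulators of glycolysis and pyruvate, glucose and lactate transport, glycogen, the pentose phosphate pathway, cytosolic NADH shuttles, and hypoxia regulators and targets. Hkdc1, Pgd, Car9 and Car12 were not analysed here. Pericyte and smooth muscle markers summed to 131 to 149.5 FPKM in EA and 133 to 155 in control, and markers of meninges and choroid plexus to 18.0 to 36.7 in EA and 19.7 to 41.7 in control, with Ttr and Folr1 at 0 in a library.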

Additional observations from a re-analysis of the deposited data

Results flagged for a closer look

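A library that stood apart from the other 4 of its group was looked for in 30 sets of 5 values, the EA and the control values of the genes and ratios described above, by the gap to its neighbour over the range of the group (critical value 0.71). Chance alone gives about 1 in 20 such sets, or 1.5 of 30, and 2 were found. Both were low values of control 1 in scaled CPM, 268 for Pfkp (gap over range 0.825) and 496 for Eno1 (gap over range 0.740).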

How the results depend on the processing

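No member was called under any alternative. Of 172 alternative log2 fold changes of the 9 members, 147 kept the sign and 25 turned it, all within -0.094 to 0.095 and with adjusted p of at least 0.295. The median log2 fold change of all genes was -0.0018 in the main fit, and ran from -0.026 to 0.0040 over the alternatives. It was -0.023 with library totals in place of TMM and -0.022 with limma on log2(FPKM + 1). With limma on log2(FPKM + 0.1) it was -0.026, and without EA 2 and EA 5 it was 0.0020. With library totals in place of TMM, Hk1 was at -0.013, Pgk1 at -0.017 and Eno2 at -0.015. With limma on log2(FPKM + 1) they were at -0.015, -0.019 and -0.018, with limma on log2(FPKM + 0.1) at -0.015, -0.019 and -0.019, and without EA 2 and EA 5 at -0.028, -0.012 and -0.017. Leaving out 1 library at a time gave ranges of -0.017 to 0.042 for Hk1, -0.0065 to 0.055 for Pfkp, -0.019 to 0.037 for Pgk1 and -0.025 to 0.056 for Eno2, and of -0.080 to -0.022 for Pfkm, -0.061 to -0.0021 for Aldoa, -0.076 to -0.030 for Eno1, 0.0062 to 0.095 for Ldha and -0.094 to -0.024 for Ldhb. Mdh1 was at -0.010 without EA 2 and EA 5, and ran from -0.0031 to 0.081 with 1 library left out. With copies summed LOC108351137 on chromosome 4 was at 0.034. The difference in the Pfkm to Pfkp ratio ran from -0.11 to -0.042 with 1 library left out and passed only without EA 2. The 3 genes called over the whole table became 166 with DESeq2 and 1 to 5 with 1 library left out, with 5 without EA 3 and 1 without EA 5 or without control 5. The causes of these shifts were not tested.

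The replicate number as a block gave 0 genes called, against 3 without it, with 2073 at an unadjusted p under 0.05. Whether the numbers pair the samples is not stated. The deviations of same-numbered libraries correlated at -0.003 to 0.085, and 3 of 5 EA libraries correlated best with the control of their own number. Such correlations cannot show whether the samples were paired. The block changed no other call. With 5 libraries a group, the intervals of the members allow folds between 0.892 and 1.15. Each member had at least 10962 counts in each library, so the spread between libraries, not counting error, set the precision.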
